A study of Arabidopsis thaliana with 8 samples.

Results

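The genes described here are Arabidopsis thaliana loci that the RefSeq gene table classes as pseudogenes and that gave array signal in seedlings. Pseudogenes are copies of genes, or remains of mobile elements, that are not annotated as coding for a working protein. In plants most transposable elements and many such copies are kept silent by DNA methylation, histone marks and small RNAs, and long heat stress is known to loosen the silencing of some repeats. A transcript from such a locus is therefore often read as a sign of its silencing state, although read-through from a neighbour or a related copy that matches the same probes can give the same signal.

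Members were chosen by level: loci of that class whose probe set mapped to 1 gene and reached a log2 value of 2.3 on any of the 8 arrays, in any group. Their levels, and the changes computed from the same arrays, are therefore a description of chosen genes. This gave 128 genes, 13.9% of the 923 pseudogenes with such a probe set. Every one of the 923 had a single such probe set, so no choice between probe sets was needed. The log2 values are microarray signals, and 2.3 lies just above the lowest value the method returned (2.18), so values below it are called the floor. Where both arrays of 1 group alone in a comparison lay at the floor, the change can only be bounded and carries the words "at least". CYTOSLEEPER (AT1G15300), a gene resembling the transposases of hAT-type DNA transposons, was the 1 member with a gene symbol of its own. The others carried only locus numbers in the tables used, so which of them are transposable elements was not determined here and no role is given for them. No sequence of these loci is shown because none was among the files used.

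Seedlings were grown in vitro for 3 weeks at 22 °C in long days. Stressed plants spent 30 h at 37 °C, entered 3 h into the light phase, and mock plants stayed at 22 °C. Both were sampled directly after the stress or after 2 days of recovery at 22 °C, with 2 biological replicates in each of the 4 groups. The labels name no genotype or accession and do not say whether plants were pooled, and they give whole seedlings as the tissue.

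Replicate arrays correlated at 0.995 to 0.996 across all probe sets and at 0.952 to 0.991 across the 128 members. Of the genes that mark green tissue, 3 of 5 had a probe set mapped to 1 gene. These 3, LHCB4.2, PSAE-1 and PSBY, read 12.9 to 14.0 on the 6 arrays other than those taken directly after heat. The root and seedling marker PYK10 read 11.3 to 12.2 on those arrays, while the root hair genes EXPA7 and EXPA18 were at the floor on all 8. Of 4 flower markers 0 had a probe set mapped to 1 gene. Directly after heat the 3 green tissue genes fell by 1.68 to 3.64 and PYK10 fell by 2.71 on the log2 scale. A control probe set for 25S ribosomal RNA read 13.41 and 13.56 directly after heat and 11.43 to 11.99 on the other arrays. The part of these shifts in the pseudogene results was not tested, and in whole seedlings fewer cells of a type and less RNA per cell cannot be told apart.

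Most members gave a weak signal, and many were seen only once. At or above 2.3, 53 members were detected on 1 array only, 34 on 2 to 7 arrays and 41 on all 8. The highest value of a member lay between 2.3 and 2.5 for 43 genes, while 46 reached 3, 31 reached 4 and 11 reached 6. Just inside the threshold were AT5G36650 (highest value 2.31), AT2G15140 (2.32) and AT5G28580 (2.32). Just outside it were AT2G14130 (2.2998), AT4G03870 (2.2992) and AT4G07580 (2.2953). Each of the first 3 was at 2.18 on the other 7 arrays, so the word expressed rests for them on a single faint reading. Among the 53 genes seen once, 1 gene exceeded 3, namely AT3G30843 (chosen after its value was seen), which read 3.54 on heat replicate 2 directly after stress and 2.18 on the other 7 arrays.

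Detection differed between arrays of the same group. The first heat array after recovery had 76 members at or above 2.3, of which 16 were seen on no other array, and its replicate had 62, of which 8 were seen on no other array. The second mock array of the first time had 69, with 11 seen there alone, against 58 and 2 on the first. Both mock arrays of the later time had 52 each. Directly after heat the counts were 72 and 71. The groups of heat arrays and mock arrays without recovery do not overlap in this count, nor do those after recovery. In each time, though, the gap is no wider than the gap between the replicates of 1 of its groups. Over all probe sets the share at the floor split the same way, so the split was not particular to the members. Without recovery that share was 31.57% and 31.31% in mock and 30.83% and 30.82% in heat. After recovery it was 31.78% and 31.68% in mock and 31.35% and 31.59% in heat.

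**Figure D1:**
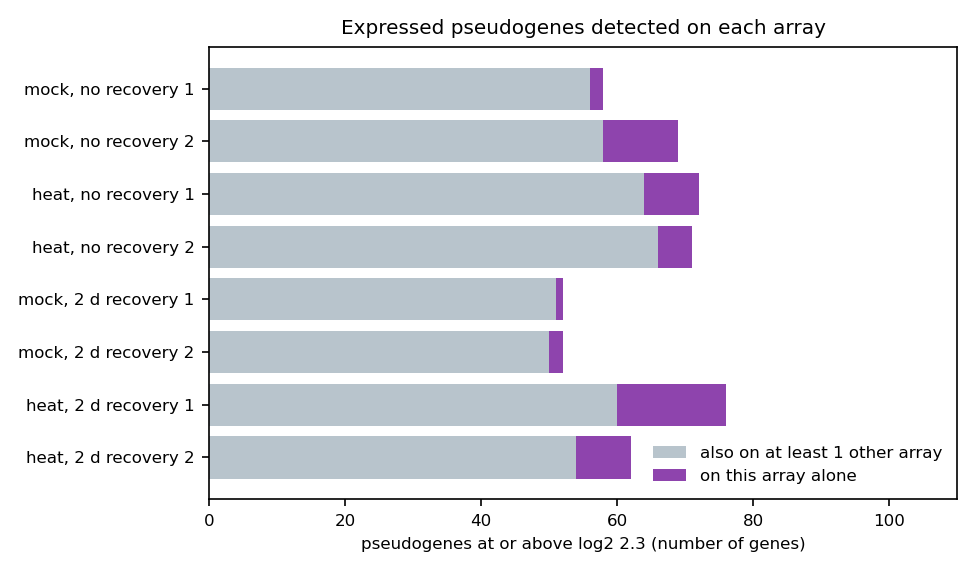
Number of pseudogenes at or above log2 2.3 on each of the 8 arrays (bars from 0), split into genes also seen on another array (grey) and genes seen on that array alone (purple). The first heat array after recovery has the most genes, 76, with 16 seen nowhere else, and the mock arrays after recovery have the fewest, 52 each.

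A value above 2.3 on every array was not always a varying signal. Of the 41 members above the threshold on all 8 arrays, 19 had at least 4 arrays that read the same value within 0.01, and those repeated values ran from 2.32 to 4.10. AT3G29120 read 4.10 on 6 arrays and up to 4.198 on the others. AT2G13940 read 2.37, and AT1G36440 2.43, on all 8 arrays. Among the 19 genes AT5G10850 alone was called in any comparison. These 4 genes were chosen after their values were seen. AT5G10850 read 2.46 on 6 arrays and 3.65 and 3.31 directly after heat. The remaining 22 of the 41 genes varied from array to array, and 13 of them had a mean of at least 4.

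Probe sets are marked by their names as designed for 1 transcript (ending _at) or as matching several (_s_at and _x_at). Of the pseudogenes with a plain _at probe set 11.4% were members (84 of 734), against 19.8% (22 of 111) for _s_at and 28.2% (22 of 78) for _x_at. A signal on the last kinds may come from a related copy. By chromosome the share of members was 15.8% on chromosome 1, 12.6% on 2, 11.3% on 3, 13.6% on 4 and 19.1% on 5. The gene order of the TAIR10.1 assembly holds 3 pairs of members that lie next to each other, formed by AT2G04980, AT2G04990 and AT2G05000, and by AT3G47310 and AT3G47320, and none of these 5 genes was called in any comparison.

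The effect of the stress itself was taken from the plants harvested without recovery. Heat raised 21 of the 128 members and lowered 5 (limma, Benjamini-Hochberg over all 22746 probe sets, threshold 0.05). AT4G05640, AT1G35050 and CYTOSLEEPER appeared from the floor, while AT4G16870 disappeared to it and AT1G35612 lost most of its signal. The changes of the 21 genes ran from 0.31 to 5.51 with a median of 1.46, and 17 of them reached 1 log2 unit. Across everything tested the called share was 41.0%, with 21.2% higher and 19.8% lower, against 16.4% and 3.9% of the members. Membership itself favours change, since 10 of the 21 risen genes had both mock arrays at the floor, and 8 of these 10 reached 2.3 on no array outside the heat group without recovery. These shares therefore support nothing on their own. The split also rested on single arrays: without the first mock array of that time 17 members were called higher and 22 lower. The median change over the 128 members was 0, as it was over all probe sets.

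The count read differently among brighter probe sets. A stricter filter kept the 13849 probe sets that reached 4 (log2) on 2 or more arrays, among them 24 members, of which 14 were called higher and 3 lower. There the background was 35.2% higher and 35.2% lower, so the share of members called, 70.8%, was close to the 70.4% of the background, while their direction leaned upward. The median change of these 24 genes was 0.73 against 0.0043 over all probe sets in that set. The filter admits a gene through the group where it is high, so the lean supports nothing on its own, and it was not tested. Among the 17 of these members above 2.3 on all 8 arrays, 8 were called higher and 2 lower, with a median of 0.32. Protein-coding probe sets that reached 2.3 anywhere rose in 28.8% and fell in 25.4% of cases, and of 16 such transcribed pseudogenes, a separate RefSeq class, 5 were higher and 2 lower.

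AT4G05640 had the widest rise of the called genes. Both mock arrays read 2.18, and the heat arrays read 7.84 and 7.53, a change of at least 5.51 ± 0.11 (SE, n = 2 arrays per group; adjusted p = 4.17e-05, limma). After recovery all 4 arrays read 2.18. The heat arrays without recovery thus stand alone, far above the other 6. The SE pools the spread of all groups, and the tied floor values lower it. With only the 4 arrays compared, the SE was 0.15 and the adjusted p 0.0062 (limma).

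AT1G35050, whose probe set is of the _s_at kind, read 2.19 and 2.18 in mock and 4.88 and 4.99 in heat, a rise of at least 2.75 ± 0.04 (adjusted p = 1.70e-05, limma). CYTOSLEEPER read 2.18 on both mock arrays and 4.59 and 4.71 in heat, a rise of at least 2.47 ± 0.04 (adjusted p = 2.44e-05, limma). Neither gene left the floor on any of the other arrays. Tied floor values lower these pooled SEs as well, so the SEs and p-values do not rest on replicate precision alone. With only the 4 arrays compared, the adjusted p was 0.0045 for AT1G35050 and 0.0053 for CYTOSLEEPER (limma). Including AT4G05640, 10 members were above 2.3 on both heat arrays of the first time and on no other array, and 8 of them were called higher. These 10 were picked by the group where they are high, which favours such a call. The share among all probe sets with that pattern is not given here, so the count supports nothing on its own. The 2 without a call, named after their values were seen, were AT2G04000 (2.89 and 4.47) and AT2G07693 (4.40 and 2.97), whose heat replicates lay far apart.

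Other risen genes had a signal in mock plants as well, though the first mock array of AT4G10580 lay at the floor. AT4G10580 went from 2.27 and 2.54 to 5.09 and 4.92, a change of 2.61 ± 0.11 (adjusted p = 0.000246, limma). AT2G14650 went from 2.98 and 3.05 to 5.24 and 4.78 (1.99 ± 0.18, adjusted p = 0.0016, limma). Both lie on _x_at probe sets, as does AT3G31970. AT3G31970 was at the floor in mock and read 4.32 and 3.82 in heat (at least 1.82 ± 0.17, adjusted p = 0.0017, limma). With only the 4 arrays compared, its adjusted p was 0.0350 (limma). In all, 10 of the 21 risen genes and 1 of the 5 fallen ones were on probe sets that match several transcripts, which leaves 11 risen and 4 fallen on plain _at probe sets.

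Smaller rises were called as well. AT1G80020 read 5.30 and 5.29 in mock and 6.08 and 5.996 in heat, a change of 0.74 ± 0.07 (adjusted p = 0.0016, limma). For AT3G43510 the mock values were 6.61 and 6.77 and the heat values 7.37 and 7.45 (0.72 ± 0.09, adjusted p = 0.0047, limma). For both genes the groups do not overlap, and each value after recovery, mock or heat, lay below the lower heat value. AT3G30396 moved from 2.18 on both mock arrays to 2.497 and 2.48, at least 0.31 ± 0.01 (adjusted p = 5.55e-05, limma). Its small adjusted p comes with a small change just above the floor, and the difference vanished when values under 3 were set to 3 (adjusted p = 1.00).

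The 5 falls were of unlike size. AT4G16870 read 7.60 and 7.53 in mock and 2.18 on both heat arrays, a change of at least -5.39 ± 0.06 (adjusted p = 1.50e-05, limma). AT1G35612 read 8.28 and 8.16 in mock and 4.25 and 4.28 in heat, a change of -3.96 ± 0.09 (adjusted p = 5.20e-05, limma). AT1G20390 went from 3.53 and 3.88 to 2.52 and 2.41 (-1.24 ± 0.20, adjusted p = 0.0085, limma). With values under 3 set to 3 its change was -0.71 and the call ended (adjusted p = 0.05001). In all 3 the 6 arrays of the other groups stood together above both heat arrays.

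The other 2 falls lay near the floor. AT4G07680 read 2.83 and 2.95 in mock, 2.57 on both heat arrays, and 2.60 to 2.62 in all 4 later arrays, so the earlier mock plants were the group that stood apart (-0.32 ± 0.04, adjusted p = 0.0041, limma). With only the 4 arrays compared its adjusted p was 0.0537, and with values under 3 set to 3 neither this nor the next fall was left (adjusted p = 1.00 for both). AT5G35260 read 2.58 and 2.37 in those mock plants and 2.18 on the other 6 arrays (at least -0.29 ± 0.07, adjusted p = 0.0318, limma). That call ended when any array of the other groups was left out (adjusted p from 0.0703 to 0.117).

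**Figure D2:**
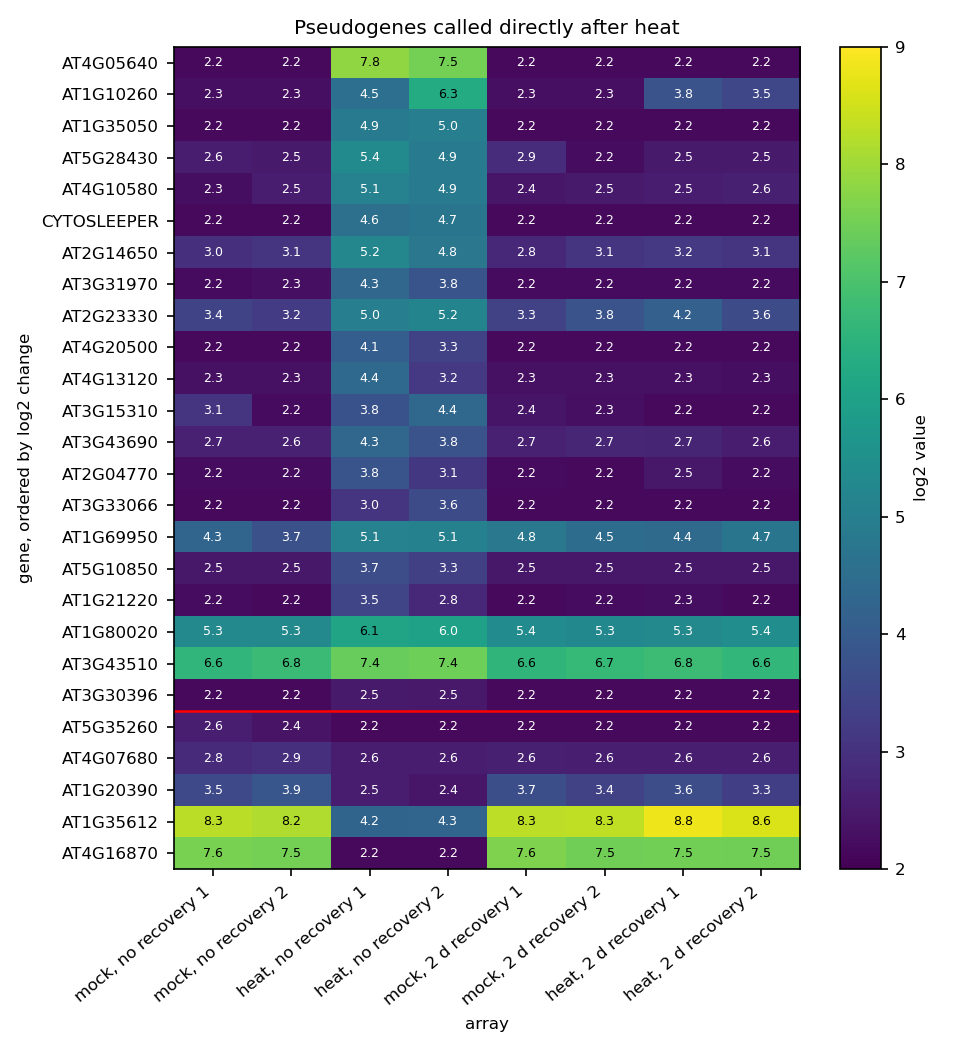
Log2 values (colour, from dark for 2 to yellow for 9, with the value printed) on the 8 arrays for the 26 pseudogenes called directly after heat, ordered by log2 change. Above the red line are the 21 genes called higher, from AT4G05640 at 5.51 down to AT3G30396 at 0.31. Below it are the 5 called lower, down to AT4G16870 at -5.39.

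Several members missed the threshold with wide changes. AT2G04460 read 6.10 and 6.86 in mock and 9.91 and 10.59 in heat, a change of 3.77 ± 1.13 (adjusted p = 0.0590, limma). The groups do not overlap, and both heat arrays stood above the other 6. The SE is wide because the model shares 1 spread over all groups and the 2 heat arrays after recovery read 3.35 and 6.54. With only the 4 arrays compared the adjusted p was 0.0336, and without either of those recovery arrays it was 0.0077. AT3G17050, chosen after its values were seen, read 4.201 and 4.50 in mock and 2.83 and 2.98 in heat (-1.45 ± 0.52, adjusted p = 0.0961, limma). Its recovered plants read 5.46 and 4.05, and without either of those arrays the adjusted p was 0.0209.

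Other members with steady signal did not pass. AT1G43590 read 7.84 and 7.61 in mock and 7.93 and 7.99 in heat (0.24 ± 0.13, adjusted p = 0.249, limma), and AT4G08220 read 7.67 and 7.88 against 7.99 and 7.48 (-0.04 ± 0.19, adjusted p = 1.00, limma). AT4G08110 read 5.68 and 5.42 in mock and 5.87 and 6.04 in heat (0.40 ± 0.13, adjusted p = 0.0751, limma), and it was called with the stricter filter (adjusted p = 0.0377) or with arrays shifted to 1 median (adjusted p = 0.0481). The groups overlap for AT4G08220 and do not for the other 2. Not passing does not show that these transcripts were unchanged.

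Chromosome 2 carries a copy of mitochondrial DNA, and pseudogenes in that stretch can give signal from mitochondrial transcripts. Taking it as the loci AT2G07660 to AT2G07840, 2 of 5 pseudogenes with a probe set were members, and neither was called. AT2G07693 read 2.18 on both mock arrays and 4.40 and 2.97 in heat (at least 1.51 ± 0.48, adjusted p = 0.0696, limma), and it was called with arrays shifted to 1 median (adjusted p = 0.0397) or without either heat array. The 26 called genes thus contain none from this copy.

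**Figure D3:**
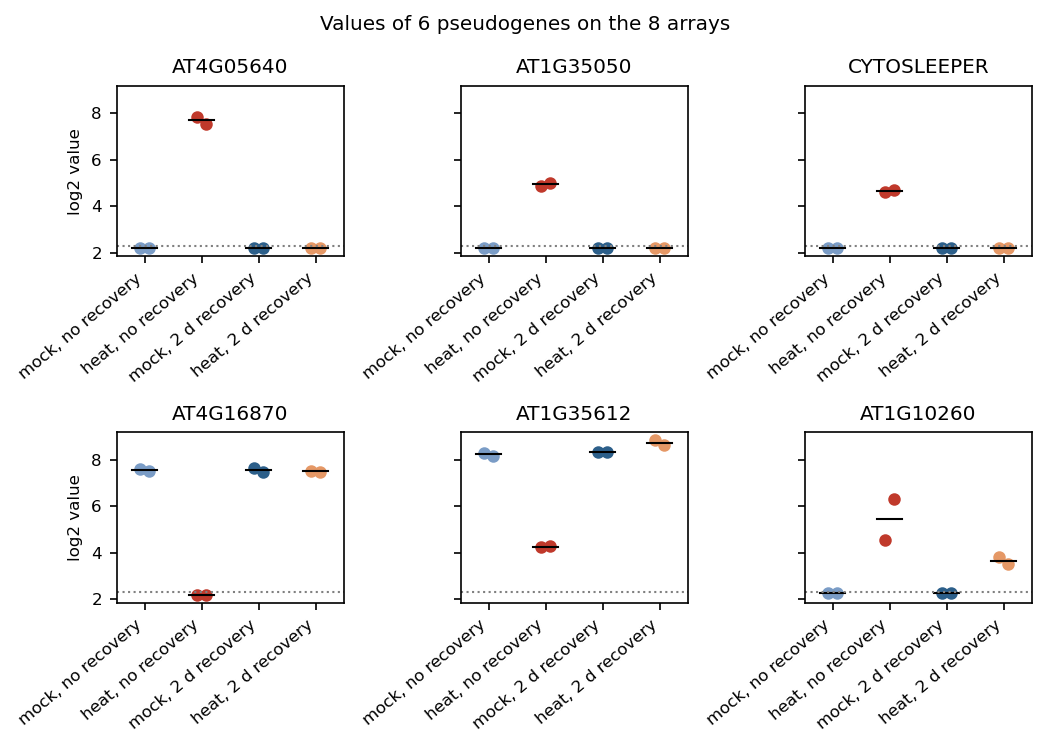
Log2 values of 6 pseudogenes in the 4 groups; each point is 1 of 2 arrays, the black line is the group mean, and the dotted line marks log2 2.3. AT4G05640, AT1G35050 and CYTOSLEEPER leave the floor only on the heat arrays without recovery, AT4G16870 and AT1G35612 drop only there, and AT1G10260 also stands above mock after recovery, at 3.79 and 3.49.

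The nearest protein-coding genes with a probe set were set beside the 26 called members, as a description. Of 52 such neighbours, 2 per member, 20 were called, against 41.0% of all probe sets, and 10 of the 20 moved in the direction of the member. Only 17 were the immediate protein-coding neighbour. Of those 12 were at the floor in mock and heat and 4 were called, 2 in the direction of the member. AT4G20480, beside AT4G20500 (itself not called with only the 4 arrays compared, adjusted p = 0.0825), rose by 1.57 (SE 0.10, adjusted p = 0.00060, limma), and AT3G43520, beside AT3G43510, rose by 1.31 (SE 0.09, adjusted p = 0.00067, limma). AT1G20380 rose by 1.24 (SE 0.31, adjusted p = 0.0355, limma) beside the fallen AT1G20390. The neighbours of AT1G35050 (AT1G35040) and of AT1G35612 (AT1G35610 and AT1G35614) stayed at 2.18 in both groups. AT1G15290, beside CYTOSLEEPER, fell by 0.70 (SE 0.10, adjusted p = 0.0068, limma), opposite to it. AT4G16880, the second protein-coding gene from AT4G16870, went from a mean of 7.13 to 2.32, a change of -4.81 ± 0.23 (adjusted p = 0.000306, limma), in the same direction as that member.

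Plants returned to 22 °C for 2 days were compared with mock plants of the same day. No member was called by limma, the 1 tool run, against 0.237% of all probe sets (0.132% higher, 0.106% lower), and 3 of 128 members had an unadjusted p under 0.05, against 2878 of all 22746 probe sets. The lowest adjusted p of a member was 0.185. It belonged to AT1G35612, at 8.83 and 8.61 in recovered plants and 8.31 and 8.33 in mock plants of that day, a change of 0.40 ± 0.09 in the direction opposite to its fall in heat. The next 3 by p were AT4G04130 (-0.18 ± 0.06, adjusted p = 0.323, limma), AT4G08110 (0.40 ± 0.13, adjusted p = 0.328, limma) and AT5G34820 (0.28 ± 0.12, adjusted p = 0.451, limma).

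The genes that had moved in heat were mostly near mock again. Of the 21 risen genes 20 had a heat effect after recovery within 0.31 of 0, and the median of the 21 was 0.0002. The width of 0.31 is arbitrary and is also the size of the smallest rise called. AT2G23330, chosen after its values were seen, lay just inside it at 0.306. The 5 fallen genes had effects from -0.07 to 0.40. Where both groups after recovery were at the floor, the floor sets a value near 0 and the extent of the return is not measured. This held for AT4G05640, AT1G35050, CYTOSLEEPER, AT3G31970, AT4G20500 and AT3G30396, among others. The exception among the risen genes was AT1G10260 (_s_at probe set), chosen after its values were seen. It read 2.28 on all 4 mock arrays, 4.55 and 6.31 directly after heat, and 3.79 and 3.49 after recovery. Its rise of at least 3.15 ± 0.60 directly after heat was called (adjusted p = 0.0151, limma), but that call ended with only the 4 arrays compared (adjusted p = 0.106) or without either mock array of that time (adjusted p = 0.0700 and 0.0711). After recovery its difference of at least 1.36 ± 0.60 was not called (adjusted p = 0.485, limma, with 0.105 to 0.957 over the alternatives), although both recovered plants stood above every mock array.

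**Figure D4:**
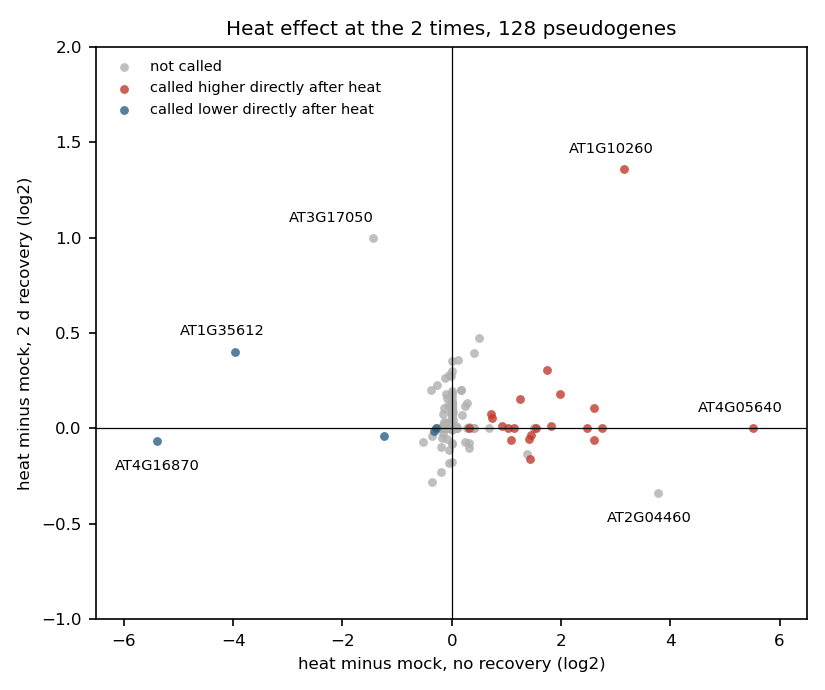
Heat minus mock change (log2) without recovery on the x axis and after 2 days on the y axis, 1 point for each of the 128 pseudogenes, coloured by the call directly after heat. The points spread from -5.39 to 5.51 along x and most lie near 0 along y. AT1G10260 at 1.36 is the highest after recovery, followed by AT3G17050 at 0.997, and neither was called there.

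The third comparison tested whether the heat effect differed between the times. It shares its arrays with the first comparisons, so its values stand beside theirs and are no second support. The difference was called for 19 members, 15 of the 21 risen genes with a lower effect after recovery and 4 of the 5 fallen genes with a higher one, against 32.3% of all probe sets called (15.4% higher, 16.9% lower). None of the 19 lay outside the genes called directly after heat. The fitted difference was -5.51 ± 0.15 for AT4G05640 (adjusted p = 0.000178, limma). Both groups after recovery were at the floor there, so this value is not a bound. For AT4G16870 the size of the difference was at least 5.32 ± 0.09. AT4G08110, which read 0.40 higher than mock at both times, had a difference of 0.00 ± 0.19.

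Mock plants sampled 2 days apart gave no call among the members in limma (18 probe sets, 0.0791%, were called in the whole table, while an unadjusted p under 0.05 was reached by 3 of 128 members and by 1964 of 22746 probe sets). The lowest adjusted p of a member was 0.188.

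Of 43 genes of the silencing and DNA methylation machinery, 1 had a probe set with 1 gene, and of 10 heat shock transcription factors 0 had one. DME, which removes methylated cytosines, read 6.08 and 6.14 in mock and 6.26 and 6.54 directly after heat (0.29 ± 0.10, adjusted p = 0.0918, limma). After recovery it read 6.40 and 6.30 in mock and 6.21 and 6.27 in recovered plants. The groups do not overlap at either time, and neither difference was called. The rest of the machinery was not analysed here.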

How the data were processed

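Expression was measured on Affymetrix arrays, 8 in all, 2 biological replicates in each of 4 groups taken from the sample titles. The authors deposited 1 processed score per probe set and array, and GCRMA (background correction, quantile normalization and probe summary on the log2 scale) is named in the submitters' processing notes, its version not being stated there. None of the deposited scores holds a decimal point (0 of 182480), and it was put back behind the leading digit, or behind the leading 2 digits of values starting with 1. Of all values 10444 start with 10 to 15 and 0 with 16 to 20, so each had 1 reading as log2, and every log2 change rests on this reading. GCRMA pulls dim probe sets to a common floor, which hides low levels and their spread and gives very small SEs where arrays tie.

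Of 22810 probe sets 64 controls were left out. The platform annotation gave 1 gene for 13513 probe sets, several for 503 and none for 8730, and 13436 of the first matched a RefSeq gene of TAIR10.1 by gene ID. This assembly was used for names, classes and gene order only. A limma 3.58.1 model (R 4.3.3) with a mean for each group used all 8 arrays and 22746 probe sets, with 4 residual degrees of freedom, two-sided moderated tests and Benjamini-Hochberg adjustment. Contrasts are given ± SE. The procedure was tested on simulated data that had no floor, with changes added only to probe sets with a mean above 4 (log2). That test does not cover members near the floor. For arrays, their number limits the precision. Replicate numbers were not used as pairs in this model. The correlation of deviations from group means was -0.15 to 0.19, which does not settle whether the arrays were paired. Python 3.11.15 with pandas 2.3.3 and matplotlib 3.10.9 made the tables and plots.

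Members, lists and tests were chosen with earlier results of these data known. The genes named were the examples given with the membership rule, the 8 risen and up to 8 fallen members with the smallest p directly after heat, the 4 with the smallest p after recovery, the 5 with the highest mean, and 3 on each side of the threshold; others are said to be chosen after their values were seen. The alternatives changed the arrays fitted, the filter, the floor, the array median, the variance model, a replicate block, single arrays and the membership threshold. Promoter motifs were not searched, since no promoter sequence was used here.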

Additional observations from a re-analysis of the deposited data

Results flagged for a closer look

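The heat effect differed between the 2 times, by limma's test of the difference itself (adjusted p under 0.05 over all probe sets), for 18 of the named genes. Values are the effect after recovery minus the effect directly after heat, in log2 units. Among the genes that had risen it was -5.51 for AT4G05640, -2.75 for AT1G35050, -2.47 for AT1G15300 (CYTOSLEEPER), -2.67 for AT5G28430, -2.50 for AT4G10580, -1.81 for AT2G14650 and -1.81 for AT3G31970. It was -1.54 for AT4G20500, -1.46 for AT3G43690, -1.44 for AT2G23330, -0.69 for AT1G80020, -0.65 for AT3G43510, -1.03 for AT5G10850 and -0.31 for AT3G30396. AT5G28430, AT4G20500, AT3G43690, AT5G10850 and AT2G23330 were chosen after their values were seen. Among the genes that had fallen it was 5.32 for AT4G16870, 4.36 for AT1G35612, 1.203 for AT1G20390 and 0.30 for AT4G07680. For AT4G05640, AT1G35050, CYTOSLEEPER, AT3G31970, AT4G20500 and AT3G30396, 3 of the 4 groups were at the floor. Their effect after recovery is not measured, so the fitted difference is not a bound. For AT4G16870 only the group directly after heat was at the floor, so the size of the difference is a minimum. AT5G10850 read the same 2.46 on the 6 arrays of its other groups, a tied value above 2.3, so its fitted difference may be no bound either. Groups of 2 arrays are too small for the test of single outlying arrays.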

How the results depend on the processing

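Directly after heat the 26 calls became 17 when only probe sets reaching 4 on 2 or more arrays were tested, of which 13 were among the 26. They became 17 with values under 3 set to 3, 13 for members with a mean of at least 3, and 15 on plain _at probe sets, a setting chosen after seeing the data. Other settings gave 18 to 29 calls, and leaving out single arrays gave 22 to 39 (16 to 33 higher, 4 to 22 lower), with 18 genes called each time. The lean to higher turned without the first mock array of that time (17 higher, 22 lower). After recovery the 0 calls became 0 to 17 with single arrays left out. Without the second heat recovery array 17 genes were called higher, 15 of them seen on the remaining array alone. Without the first heat recovery array 6 were called, all 6 seen only on its replicate, and without the first or second mock recovery array 3 and 2. A group left with 1 array is assumed to vary like the others, so a single reading can pass. Outside the stricter filter, the share of all probe sets called under the settings named here is not given. These counts therefore say nothing about the members on their own. The difference of the heat effects gave 19 calls, 14 to 33 with single arrays left out (32 without the first mock array of the first time, 20 higher and 12 lower against 4 and 15 with all arrays, 29 and 30 without either heat array of that time, 33 without the second heat recovery array, 22 higher and 11 lower), 11 for members with a mean of at least 3 and 10 on plain _at probe sets. Between the mock times 0 calls became 0 to 14, the 14 without the first mock array of the earlier time. With the replicate number as a block 24 genes were called directly after heat (23 of them among the 26), 0 after recovery and 14 for the difference. For the recovery arrays the correlation was -0.15, and a block with crossed replicate numbers also gave 0 calls. Whether the numbers are crossed was not tested. No named call changed its direction. No member had a second probe set mapped to 1 gene to try. Signal near the floor limits what can be seen of the 43 members that stayed below 2.5.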
